A study of Sus scrofa with 23 samples.

Results

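The genes of cholesterol synthesis described here are HMGCS1, IDI1, FDPS, FDFT1, SQLE, DHCR7 and INSIG1, which encode 6 enzymes of the pathway and 1 of its regulators. They were chosen by symbol, and all 7 of 7 symbols matched a row of the 25880 genes in the count table. All 7 passed the filter on low counts, which left 15049 genes. RNA was measured by poly-A selected sequencing of the prefrontal cortex of 23 adolescent female pigs of 20 kg, with 1 library per animal. Every animal was awake and freely moving when it received 1 intravenous injection, either saline or 0.08 mg/kg psilocybin, a tryptamine whose product psilocin activates the 5-HT2A serotonin receptor. Animals were killed with pentobarbital either 1 day or 1 week later. The groups were saline 1 day (n = 5), psilocybin 1 day (n = 6), saline 1 week (n = 6) and psilocybin 1 week (n = 6), and the series states 6 animals per group. No genetic change was made in any group, and the saline animals share the injection and the killing with the psilocybin animals.

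Most cholesterol of the brain is made within it, since plasma lipoproteins do not cross the blood-brain barrier in bulk. Oligodendrocytes need it for myelin, astrocytes make it and export it on apolipoprotein E, and neurons turn it over through the hydroxylase CYP46A1. The synthesis genes are targets of the transcription factor SREBP-2, which is carried out of the endoplasmic reticulum by SCAP when sterols are low and is held there by INSIG proteins when sterols are high. In the order of the pathway, HMGCS1 makes HMG-CoA, IDI1 interconverts the isoprenoid building blocks, FDPS makes farnesyl diphosphate, FDFT1 makes squalene, SQLE oxidises squalene in a rate-limiting step, and DHCR7 reduces 7-dehydrocholesterol to cholesterol.

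The libraries held 9504421 to 18654626 assigned counts, and the labels divide the animals into batch 1 (11 animals) and batch 2 (12 animals), without saying what the batches are. Each group had animals of both batches (3 of each, or 2 and 3 in saline 1 day). The labelled tissue carried its markers: all 8 neuronal, 7 astrocyte, 7 oligodendrocyte, 7 microglial and 4 endothelial markers that matched had counts in every library. In bulk tissue, fewer cells of a type and less RNA per cell cannot be told apart. Summed oligodendrocyte markers ranged from 3623 to 22873 CPM over the libraries (CPM are counts scaled by library size with the TMM method of edgeR). Animals are numbered here from 1 within their group by rank of the number in their title. The libraries of saline 1 day animal 5, of animal 1 in the saline 1 week group and of animal 6 in the psilocybin 1 week group stood apart. Their mean log2 scores of ribosomal protein genes were 0.92, 0.68 and 0.41 relative to the mean of all libraries. Results of the 7 genes that rest on these libraries are given with and without them.

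Per kilobase of exon, HMGCS1 and IDI1 were the most abundant of the 7 genes. HMGCS1 had a median of 77.5 CPM per kb over the 23 libraries (51.3 to 104), a level above 95.7% of all genes tested. IDI1 had 54.7 CPM per kb (41.9 to 70.8) and lay below HMGCS1 in 20 of 23 libraries. FDFT1 (23.2), SQLE (20.2) and FDPS (19.4) followed, and these 3 neighbours overlapped: FDFT1 exceeded SQLE in 17 of 23 libraries, and SQLE exceeded FDPS in 15 of 23. INSIG1 (9.08 CPM per kb) and DHCR7 (5.50) were lowest, and INSIG1 exceeded DHCR7 in 23 of 23 libraries. DHCR7 lay near the middle of all genes tested (percentile 48.9).

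Among the regulators of the pathway, SREBF2, which encodes SREBP-2, had a median of 39.9 CPM per kb, and INSIG2, the other INSIG gene, had 8.05. Of 16 other synthesis genes listed, 15 were tested, and PMVK had no matching symbol.

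**Figure D1:**
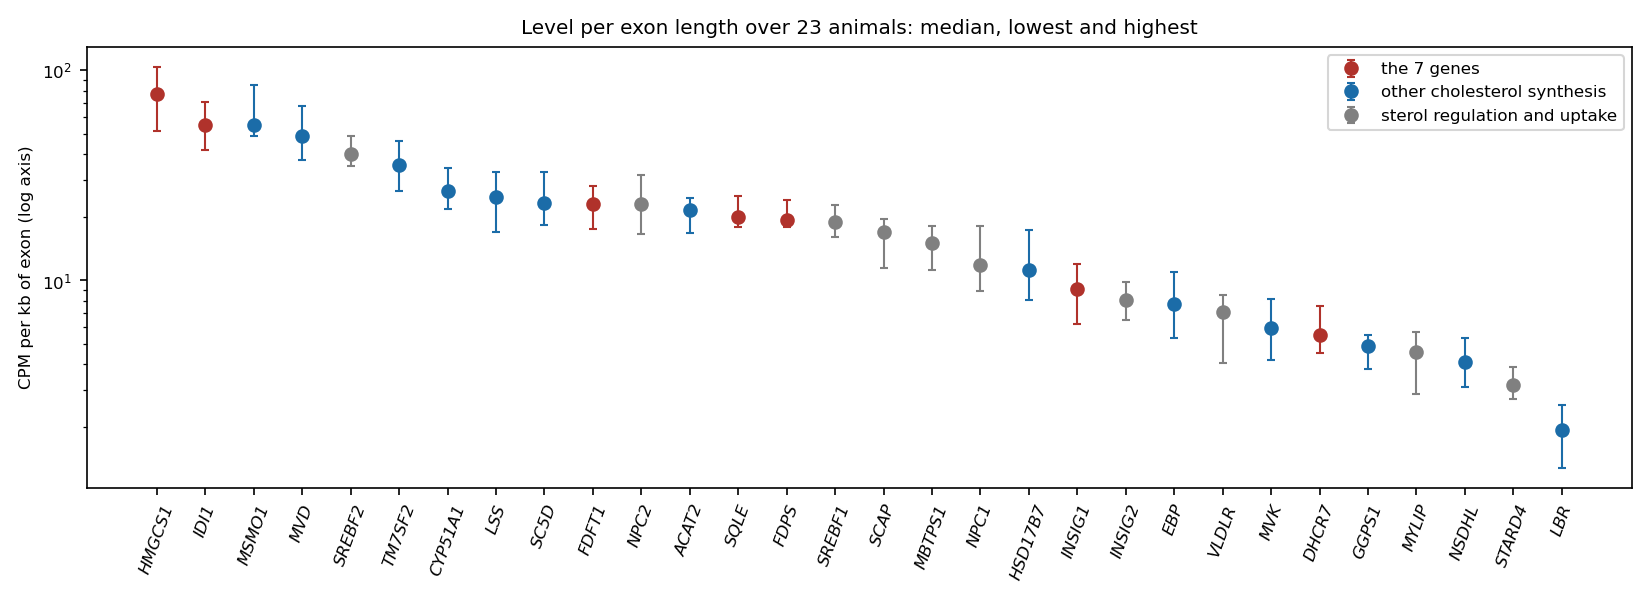
Level of the 7 genes (red), 13 other cholesterol synthesis genes (blue) and 10 genes of sterol regulation and uptake (grey) in CPM per kb of exon on a log axis, with points at the median and bars from the lowest to the highest of 23 libraries. HMGCS1 stands at the top with a median of 77.5 CPM per kb and DHCR7 lies towards the low end at 5.50.

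Read sharing between genes limited 1 of the 7. The exons of FDPS (chromosome 4, 94489208 to 94513941, minus strand, susScr11) overlap those of RUSC1, a neuronal adaptor gene on the same strand, over 83.9% of their length, and the authors split each shared read between both genes. FDPS had 0.983 to 1.03 times the CPM of RUSC1 in every library, and the values of both genes correlated across the 23 animals with r = 0.99. FDPS values therefore cannot be told apart from those of RUSC1 here. FDFT1 (chromosome 14, 14967273 to 15104179) shares 7.83% of its exon length with the cathepsin gene CTSB on the other strand (r = 0.46 between both genes). IDI1 (chromosome 10, 68534517 to 68539280) shares 2.81% with WDR37 on the other strand (r = 0.09). HMGCS1 (chromosome 16, 27936229 to 27957227), SQLE (chromosome 4, 14667848 to 14700221), INSIG1 (chromosome 18, 2885494 to 2898914) and DHCR7 (chromosome 2, 2357714 to 2394851) share no exon with another annotated gene.

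The comparison of psilocybin with saline at 1 day asks whether expression differs soon after the dose. None of the 7 genes passed: 0 of 7 had an adjusted p under 0.05 with edgeR's quasi-likelihood test, against 0% of all 15049 genes, and 0 of 7 had an unadjusted p under 0.05, against 2.83% of all genes (0 of 7 lower, against 1.57%). DESeq2 also called 0 genes. Fitted log2 fold changes were positive for 4 and negative for 3, with a median of 0.03 beside 0.00 over all genes. The 95% confidence intervals of the 7 genes lay between -0.44 and 0.40 on the log2 scale. Saline and psilocybin animals overlapped for every one of the 7 genes, and groups without overlap were found for 0.126% of all genes.

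HMGCS1, which makes HMG-CoA, had 358, 404, 463, 470.3 and 620 CPM in the 5 saline animals of 1 day. After psilocybin the lowest, median and highest animals had 306, 418.9 and 576 CPM. The highest saline animal was animal 5, which stands apart as described above, and the ranges overlapped almost fully. The log2 fold change was -0.04 ± 0.11 (SE, n = 6 and 5), and -0.04 in each batch. Its sign turned without any 1 of 3 animals: it was 0.04 without saline animal 5, 0.0050 without psilocybin animal 1 and 0.014 without psilocybin animal 4.

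IDI1 had 125, 117, 89.3, 97.8 and 138 CPM in the saline animals and 83.7, 101 and 117 CPM (lowest, median and highest) after psilocybin. The log2 fold change, -0.19 ± 0.12 (SE), was the most negative of the 7 at 1 day and did not pass (adjusted p = 0.9996 with edgeR). Without animal 5, the highest of the saline group, it was -0.08. At 1 day 18 of 18 ribosomal protein genes (median -0.27) and 15 of 15 respiratory chain genes (median -0.28) also had negative log2 fold changes, with 0 of either list past the threshold. Summed ribosomal protein genes ranged from 2780 to 7306 CPM in saline and from 2830 to 4672 CPM in psilocybin animals. Saline animal 5 had mean log2 scores of 0.92 for the ribosomal protein list and 0.72 for the respiratory chain list. The other saline animals had -0.51 to 0.13 and -0.31 to 0.20, and the psilocybin animals had -0.50 to 0.24 and -0.36 to 0.15. Fold changes of the 2 lists without animal 5 were not computed. The part of these lists in the IDI1 value was not tested.

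FDFT1, the squalene synthase gene, had 165, 151, 146, 149 and 154 CPM after saline and 115, 156 and 184 CPM (lowest, median and highest) after psilocybin. Psilocybin animals spread on both sides of the saline animals, and the log2 fold change was -0.04 ± 0.10 (SE). SQLE had 104, 93.4, 117, 109 and 106 CPM after saline, and 91.3, 106 and 125 CPM after psilocybin (log2 fold change 0.03 ± 0.09). FDPS, counted together with RUSC1, had 119 to 139 CPM after saline and 113 to 152 CPM after psilocybin (0.05 ± 0.07, and 0.05 for RUSC1).

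DHCR7 had 35.7, 33.8, 32.2, 30.5 and 25.3 CPM after saline and 29.2, 35.5 and 42.4 CPM (lowest, median and highest) after psilocybin. Animal 5 was the lowest of the saline group here. Its log2 fold change, 0.17 ± 0.11 (SE), missed the threshold, and the difference in mean log2 CPM was 0.00 in batch 1 and 0.26 in batch 2. Without animal 5 the fold change was 0.099.

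INSIG1, which retains SCAP and SREBP in the endoplasmic reticulum and is itself a sterol-responsive SREBP target, had 49.5, 49.6, 52.3, 35.5 and 54.0 CPM after saline. The psilocybin animals of 1 day had 44.4, 48.3 and 69.0 CPM (lowest, median and highest). In both groups 1 animal lay away from the others, animal 4 at 35.5 CPM after saline and animal 2 at 69.0 CPM after psilocybin. The log2 fold change was 0.08 ± 0.12 (SE), and it was -0.022 without animal 2 and -0.012 without animal 4.

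**Figure D2:**
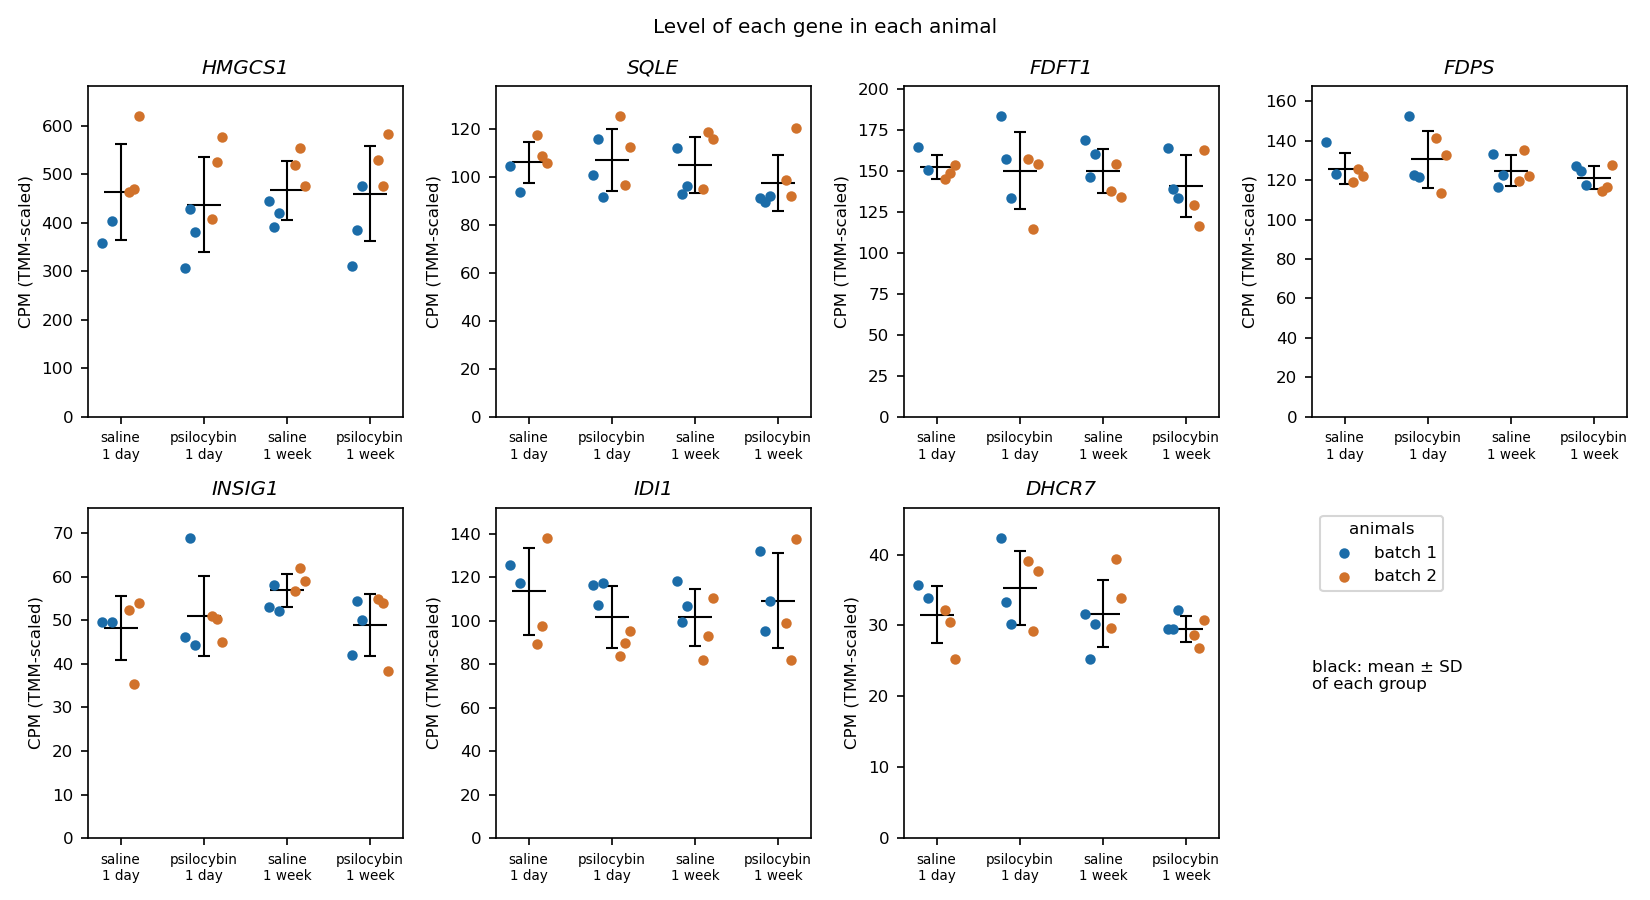
CPM of each of the 7 genes in every animal of the 4 groups, with batch 1 in blue and batch 2 in orange, and black bars at the mean ± SD of each group. The groups overlap in every panel, and HMGCS1 is higher in the batch 2 animals (516 ± 60.4 CPM) than in the batch 1 animals (392 ± 52.1 CPM).

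The comparison at 1 week asks whether a difference is present later. With edgeR 0 of 7 genes passed, against 0% of all genes, and 0 of 7 had an unadjusted p under 0.05, against 1.99% of all genes (0 of 7 lower, against 0.791%). The groups overlapped for all 7, and 0.0465% of all genes had groups without overlap. DESeq2 called 0 genes in this comparison too. Log2 fold changes were negative for 6 of 7, with a median of -0.09, and 48.8% of all genes had positive ones. The intervals lay between -0.46 and 0.35.

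INSIG1 had the value farthest from 0 at 1 week. The saline animals had 52.1, 57.4 and 62.0 CPM (lowest, median and highest) and the psilocybin animals 38.4, 52.0 and 54.8 CPM. Psilocybin animals extended lower, and the ranges overlapped between 52.1 and 54.8 CPM. The log2 fold change, -0.22 ± 0.12 (SE, n = 6 each), missed the threshold (95% interval -0.46 to 0.02, adjusted p = 1.00 with edgeR), with differences of -0.16 in batch 1 and -0.29 in batch 2. All 7 oligodendrocyte markers also had negative log2 fold changes at 1 week (median -0.21, 0 past the threshold). Their summed level was 5228 to 13850 CPM after saline and 6706 to 9561 CPM after psilocybin. In batch 1 their mean log2 scores were -0.66, -0.54 and 0.31 after saline and -0.27, -0.20 and -0.11 after psilocybin. In batch 2 they were 0.16, 0.31 and 0.59 after saline and -0.20, -0.10 and 0.10 after psilocybin. Psilocybin animals thus lay within the saline range in batch 1 and below every saline animal in batch 2. The part of these markers in the INSIG1 value was not tested.

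SQLE had 92.7, 104 and 118 CPM after saline and 89.6, 91.9 and 120.2 CPM after psilocybin at 1 week (lowest, median and highest). Of the 6 psilocybin animals 5 had at most 98.7 CPM, and animal 6 had 120.2 CPM. The log2 fold change was -0.11 ± 0.08 (SE), with -0.166 without that animal and -0.065 without saline 1 week animal 1. FDFT1 had 134, 150.3 and 169 CPM after saline and 117, 136 and 165 CPM after psilocybin (-0.09 ± 0.09), with -0.154 without psilocybin animal 6 and -0.051 without psilocybin animal 5. DHCR7 had 25.2, 30.9 and 39.4 CPM after saline and 26.8, 29.5 and 32.1 CPM after psilocybin (-0.10 ± 0.11), so the psilocybin animals lay within the saline range. The DHCR7 value was -0.022 without saline 1 week animal 5 and -0.162 without saline 1 week animal 2.

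IDI1 was the exception in sign at 1 week, with 81.8, 103 and 118 CPM after saline and 82.0, 104 and 138 CPM after psilocybin (log2 fold change 0.11 ± 0.12). Its highest psilocybin animal was animal 6, without which the fold change was -0.0011. HMGCS1 had 392, 460.0 and 553 CPM after saline and 312, 476 and 582 CPM after psilocybin (-0.03 ± 0.11). FDPS had 116 to 135 CPM after saline and 114 to 127 CPM after psilocybin (-0.04 ± 0.07, and -0.03 for RUSC1).

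The difference between the psilocybin effects at both times was tested directly. With edgeR 0 of 7 genes passed (0% of all genes), and 0 of 7 had an unadjusted p under 0.05 (2.02% of all genes, 0.91% lower). INSIG1 had -0.30 ± 0.17 (SE), DHCR7 -0.26 ± 0.16 and IDI1 0.29 ± 0.17, and each interval contained 0. DHCR7 had 0.07 in batch 1 and -0.51 in batch 2. IDI1 had 0.09 without the 3 libraries standing apart. HMGCS1 had 0.01 ± 0.15, with an interval from -0.31 to 0.33.

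Between the times, saline animals differed by 0.24 ± 0.12 (SE) for INSIG1 on the log2 scale (1 week minus 1 day, 95% interval -0.01 to 0.49). That value was 0.146 without saline 1 day animal 4 and 0.286 without saline 1 day animal 5. Without the 3 libraries standing apart it was 0.30, with an unadjusted p of 0.0266 and an adjusted p of 0.999 (edgeR). There 433 of 15088 genes had an unadjusted p under 0.05. The counts that follow are for all animals. None of the 7 genes passed in saline animals (0 of 7, against 0% of all genes), and 0 of 7 had an unadjusted p under 0.05 (2.01% of all genes, 0.857% lower). The groups overlapped for all 7, against 0.14% of all genes without overlap. After psilocybin DHCR7 had a log2 fold change of -0.26 ± 0.11 (95% interval -0.48 to -0.04), from 35.3 ± 5.24 CPM at 1 day to 29.6 ± 1.81 CPM at 1 week (SD, n = 6 each). It was the only 1 of 7 with an unadjusted p under 0.05 (against 3.18% of all genes in either direction and 1.65% lower), and its adjusted p was 0.999 with edgeR, where 0% of all genes passed. Its groups overlapped, as did those of the 6 other genes, against 0.0664% of all genes without overlap. The DHCR7 difference was -0.20 in batch 1 and -0.29 in batch 2. Without the 3 libraries standing apart DHCR7 had -0.27 (unadjusted p = 0.0249 with edgeR). There SQLE also had an unadjusted p under 0.05 (-0.19, unadjusted p = 0.0244, adjusted p = 0.771 with edgeR), as did 952 of 15088 genes. DESeq2 called 1 gene in saline and 1 gene in psilocybin animals between the times, none of them among the 7. The comparisons within psilocybin and within saline share animals with those between treatments.

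**Figure D3:**
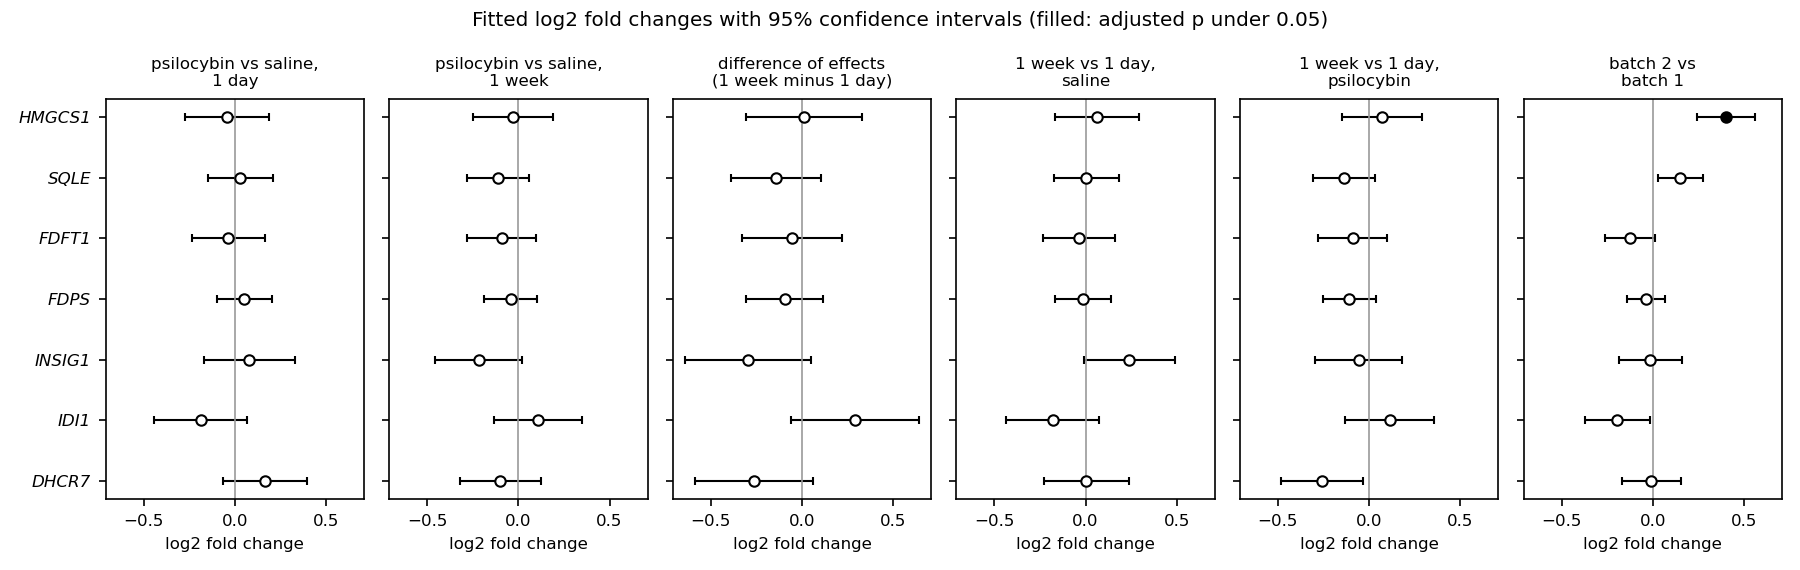
Fitted log2 fold change of each of the 7 genes in 6 comparisons, with 95% confidence intervals and filled points where the adjusted p was under 0.05. The filled point is HMGCS1 between batches (0.40), and in the treatment and time comparisons every point is open.

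The wider pathway gave 0 genes past the threshold in any comparison of treatment or time with edgeR. At 1 day 0 of 15 other synthesis genes passed, with 7 positive and 8 negative log2 fold changes (median -0.04) and 0 at an unadjusted p under 0.05. Among 11 tested genes of sterol regulation and uptake 7 were positive (median 0.12), and among 12 of sterol efflux and turnover 9 were (median 0.08). Of 10 fatty acid synthesis targets of SREBP 9 were positive (median 0.10). Beside these, 51.4% of all genes were positive at 1 day. An unadjusted p under 0.05 was found for 2 of the 10 fatty acid targets and 1 of the 11 genes of sterol regulation and uptake. It was found for 0 of the 12 genes of sterol efflux and turnover, against 2.83% of all genes.

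The smallest unadjusted p among these lists at 1 day belonged to STARD4, a sterol transport protein gene. It had 20.0 ± 1.36 CPM after psilocybin (SD, n = 6) and 23.9 ± 2.03 CPM after saline (SD, n = 5), a log2 fold change of -0.25 ± 0.09 (SE) that missed the threshold. FASN, the fatty acid synthase gene (0.18 ± 0.07), the desaturase gene FADS1 (0.28 ± 0.13) and SCAP (0.17 ± 0.09) followed and did not pass either. At 1 week the smallest p values were those of ABCA1, a cholesterol exporter (0.51 ± 0.28), FASN (0.11 ± 0.07), ABCG4, another sterol exporter (0.13 ± 0.09), and ACAT2, which makes acetoacetyl-CoA (-0.11 ± 0.08). Of the other synthesis genes 5 were positive and 10 negative at 1 week (median -0.02), with 0 of 15 past the threshold.

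For the difference between the psilocybin effects, STARD4 (0.36 ± 0.13), the lysosomal sterol transfer gene NPC2 (0.31 ± 0.16), FADS1 (-0.31 ± 0.18) and SOAT1, a cholesterol esterification gene (0.46 ± 0.28), came first by p, and 0 passed. In saline animals STARD4 (-0.25 ± 0.09), SOAT1 (-0.47 ± 0.20), CYP27A1, a sterol hydroxylase (0.41 ± 0.21), and the desaturase gene FADS2 (0.12 ± 0.08) came first between the times. STARD4 had 20.0 ± 2.42 CPM in saline animals of 1 week (SD, n = 6), so the saline 1 day group had the highest mean of the 3 groups given for it. In psilocybin animals ACSS2 (-0.16 ± 0.08), NPC2 (0.18 ± 0.11), the sterol dehydrogenase gene NSDHL (-0.18 ± 0.11) and ACLY, which makes cytosolic acetyl-CoA (-0.14 ± 0.08), came first.

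HMGCS1 rose from 392 ± 52.1 CPM in batch 1 (SD, n = 11) to 516 ± 60.4 CPM in batch 2 (SD, n = 12), a log2 difference of 0.40 ± 0.08 (SE) that passed (adjusted p = 0.000733 with edgeR). It was the 1 gene of 7 called, against 32.9% of all genes, and 16.1% of all genes were called higher in batch 2. At an unadjusted p under 0.05 there were 3 of 7, against 43.6% of all genes, and 1 of these 3 was lower, against 23.1%. The difference had the same sign within all 4 groups (0.43 in saline 1 day, 0.43 in psilocybin 1 day, 0.30 in saline 1 week and 0.45 in psilocybin 1 week), and the batches did not overlap in 3 of the 4. A group held at most 3 animals of each batch, and the share of all genes without overlap within a group was not computed. Batches within a group also did not overlap for SQLE in saline 1 day and psilocybin 1 week. SQLE was higher in batch 2 in both. Batches also did not overlap for IDI1 in psilocybin 1 day (-0.34) and DHCR7 in saline 1 day (-0.25), which were lower in batch 2. Over all animals the HMGCS1 batches did overlap, between 408 and 475 CPM, as did those of the 6 other genes (0.545% of all genes had batches without overlap).

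SQLE had 98.0 ± 8.99 CPM in batch 1 and 109 ± 11.2 CPM in batch 2, a log2 difference of 0.15 ± 0.06 that did not pass (adjusted p = 0.0557 with edgeR) and did pass with DESeq2 (adjusted p = 0.0369). IDI1 had 113 ± 10.8 CPM in batch 1 and 99.9 ± 19.6 CPM in batch 2 (-0.19 ± 0.09, adjusted p = 0.0833 with edgeR). SQLE also passed with edgeR without the 3 libraries standing apart, and without psilocybin 1 day animal 2 or 5, psilocybin 1 week animal 5, saline 1 day animal 5 or saline 1 week animal 1 or 4. IDI1 had -0.26 and passed without the 3 libraries (adjusted p = 0.00331 with edgeR), and it passed without psilocybin 1 week animal 2 or 6 or saline 1 day animal 5. FDFT1 (-0.12 ± 0.07), FDPS (-0.04 ± 0.05), INSIG1 (-0.01 ± 0.08) and DHCR7 (-0.01 ± 0.08) did not pass, and the signs of INSIG1 and DHCR7 turned with RLE scaling (0.0007 and 0.0058). The log2 values of the 7 genes ran from -0.19 to 0.40.

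Between batches 32.9% of all genes were called, 2428 of 15049 higher and 2527 lower, and the list counts here stand beside that share. Of 15 other synthesis genes 5 were called higher and 1 was called lower in batch 2. Among them SC5D, a sterol desaturase gene, rose by 0.26 ± 0.06 on the log2 scale, CYP51A1, the lanosterol demethylase gene, by 0.20 ± 0.06, LBR by 0.25 ± 0.10 and GGPS1 by 0.18 ± 0.06, while the sterol isomerase gene EBP fell by 0.23. Of 10 fatty acid targets 6 were higher and 0 lower, among them ELOVL5 (0.56 ± 0.09), ELOVL6 (0.30 ± 0.06), ACLY (0.31 ± 0.06), FASN (0.22 ± 0.05), ACACA (0.24 ± 0.06) and SCD (0.24 ± 0.08). In sterol regulation and uptake 5 of 11 were higher and 2 lower, and among them VLDLR (0.39 ± 0.08), NPC1 (0.35 ± 0.10), the SREBP protease gene MBTPS1 (0.22 ± 0.06) and MYLIP (0.26 ± 0.10) rose, and NPC2 (-0.23 ± 0.08) and SREBF1 (-0.14 ± 0.05) fell. In sterol efflux and turnover ABCA1 rose (0.98 ± 0.21), and APOE (-0.39 ± 0.09), CYP46A1 (-0.18 ± 0.06) and NR1H2, a sterol-sensing receptor gene (-0.15 ± 0.05), fell.

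Cell type markers moved with the batches as well, beside 2428 of all 15049 genes called higher and 2527 called lower. Of 7 astrocyte markers 4 were called higher in batch 2 and 0 lower (median 0.27). The log2 fold changes of the 3 others were negative, and those of all 7 ran from -0.17 to 1.54. The sum of the 7 ranged from 2723 to 6178 CPM in batch 1 and from 3820 to 5360 CPM in batch 2. All 7 of 7 microglial markers were called lower (median -0.51), with sums from 228 to 364 CPM in batch 1 and from 144 to 300 CPM in batch 2. None of 7 oligodendrocyte or 4 endothelial markers was called, and 2 of 8 neuronal markers were called in each direction. All 18 ribosomal protein genes (2 called, median -0.24) and all 15 respiratory chain genes (4 called, median -0.23) had lower values in batch 2. The part of these markers in the HMGCS1 difference was not tested.

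After removal of group and batch, the residual SD on the log2 scale was 0.11 for FDPS, 0.14 for SQLE and 0.16 for FDFT1. It was 0.19 for DHCR7 and HMGCS1, and 0.21 for INSIG1 and IDI1. These SDs include batch differences that vary between the groups. The median over all genes tested was 0.22, so all 7 lay below it. Those genes were not matched to the 7 by count level. FDPS, counted with RUSC1, lay at percentile 5.04 of all genes, and IDI1, the highest of the 7, at percentile 46.5.

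Correlations among the 7 genes were computed for all 21 pairs over the 23 animals, after removal of group and batch. Of these, 6 passed a permutation test adjusted over the 21 pairs, all positive, and all were among FDPS, FDFT1, DHCR7 and SQLE. None of the pairs that held HMGCS1, IDI1 or INSIG1 passed, and 7 of the 21 coefficients were negative. The median of the 21 was r = 0.20, with a range from -0.36 (HMGCS1 with FDPS) to 0.80 (FDFT1 with FDPS). Ranked by r among 15048 other genes, the best partner within the 7 came at rank 21 for SQLE and 34 for DHCR7. That partner came at rank 73 for FDPS and 100 for FDFT1, and at 2410, 3446 and 3963 for IDI1, INSIG1 and HMGCS1. Genes of 1 library share its depth and composition, which these coefficients contain.

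FDFT1 and SQLE, which act next to each other on the way into and out of squalene, had r = 0.68 (permutation p = 0.00048, adjusted p = 0.00336) and Spearman's rho = 0.63 (permutation p = 0.00178, adjusted p = 0.00934). Without the 2 animals farthest from the median of the gene that comes first in the order SQLE, FDFT1, FDPS, DHCR7, r was 0.64, and it was 0.49 in batch 1 and 0.79 in batch 2. SQLE and DHCR7 had r = 0.54 (permutation p = 0.00791, adjusted p = 0.029) and rho = 0.64 (permutation p = 0.00146, adjusted p = 0.00934), 0.65 without 2 animals, and 0.29 and 0.71 within the batches. FDFT1 and DHCR7 had r = 0.53 (permutation p = 0.00827, adjusted p = 0.029), but rho = 0.48 did not pass (permutation p = 0.0227, adjusted p = 0.0795). Without 2 animals that r was 0.48, and within the batches it was 0.52 and 0.54. These 3 pairs do not contain FDPS.

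The 3 other pairs contain FDPS, which was counted with RUSC1. FDPS had r = 0.80 with FDFT1 (permutation p = 2e-05, adjusted p = 0.000315) and rho = 0.78 (permutation p = 4e-05, adjusted p = 0.00084). It had r = 0.77 with DHCR7 (permutation p = 3e-05, adjusted p = 0.000315) and rho = 0.71 (permutation p = 0.00019, adjusted p = 0.00199). With SQLE it had r = 0.54 (permutation p = 0.0083, adjusted p = 0.029) and rho = 0.54 (permutation p = 0.00826, adjusted p = 0.0347). Without the 2 farthest animals these were 0.77, 0.71 and 0.67, in batch 1 they were 0.79, 0.77 and 0.30, and in batch 2 they were 0.84, 0.77 and 0.75. RUSC1 itself had r = 0.81 with FDFT1, 0.80 with DHCR7 and 0.59 with SQLE, so the FDPS coefficients cannot be told apart from those of RUSC1.

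Of the 6 pairs, 3 depended on single animals. SQLE with DHCR7, FDFT1 with DHCR7 and SQLE with FDPS each missed the threshold without any 1 of 6 animals (psilocybin 1 day animals 3, 4 and 5, psilocybin 1 week animal 5, and saline 1 week animals 2 and 5). FDFT1 with DHCR7 also missed it without psilocybin 1 day animal 1 or 6, and SQLE with FDPS without psilocybin 1 week animal 6 or saline 1 week animal 1. The lowest r over these settings were 0.46, 0.44 and 0.44. With batch not removed these 3 pairs missed the threshold (r = 0.45, 0.50 and 0.36), and so did SQLE with FDFT1 (r = 0.32, adjusted p = 0.275), so that FDFT1 with FDPS (r = 0.80) and FDPS with DHCR7 (r = 0.76) were the pairs of the 6 that still passed. Without the 3 libraries standing apart SQLE with FDPS missed it (r = 0.47).

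**Figure D4:**
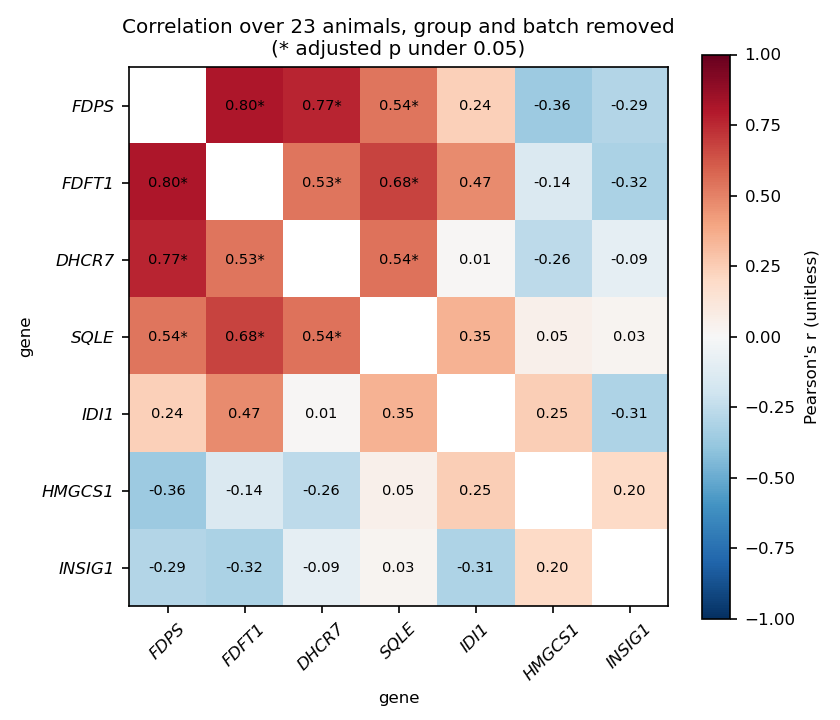
Pearson's r for each pair of the 7 genes over 23 animals after removal of group and batch, coloured from -1 (blue) to 1 (red), with a star where the adjusted p was under 0.05. The starred cells are the 6 pairs among FDPS, FDFT1, DHCR7 and SQLE, and the coefficients of HMGCS1 and INSIG1 reach at most 0.25.

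Each gene was also set against the scores of 7 marker lists (the mean of log2 CPM over a list), which gave 49 relations, of which 7 passed after adjustment over the 49. The share of all genes with relations of this strength was not computed. HMGCS1 was higher in animals with a higher astrocyte score. The relation had r = 0.70 (permutation p = 0.00027, adjusted p = 0.00441) and rho = 0.65 (permutation p = 0.00106, adjusted p = 0.0201). Without the 2 animals farthest from the median of the gene it was 0.60, with 0.81 in batch 1 and 0.56 in batch 2. FDPS, with RUSC1, had the opposite sign against the astrocyte score (r = -0.67, permutation p = 0.00056, adjusted p = 0.00598, rho = -0.64, permutation p = 0.00123, adjusted p = 0.0201), with -0.56 without 2 animals and -0.64 and -0.71 within the batches.

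INSIG1 was higher with a higher oligodendrocyte score (r = 0.59, permutation p = 0.00385, adjusted p = 0.0314), but rho = 0.49 did not pass (permutation p = 0.0185, adjusted p = 0.119). Without the 2 animals farthest from the median of INSIG1 r was 0.32, so the relation rests on those animals, and r was 0.45 and 0.68 within the batches. Saline 1 day animal 4 had the lowest INSIG1 of all 23 animals (35.5 CPM) and an oligodendrocyte score of -1.10 relative to the mean of all libraries, and without it r was 0.35. The relation also missed the threshold without psilocybin 1 day animal 2 (r = 0.53) or saline 1 day animal 5 (r = 0.55).

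IDI1 followed the ribosomal protein score (r = 0.78, permutation p = 3e-05, adjusted p = 0.00147, rho = 0.67, permutation p = 0.00074, adjusted p = 0.0201) and the respiratory chain score (r = 0.75, permutation p = 9e-05, adjusted p = 0.0022, rho = 0.59, permutation p = 0.00364, adjusted p = 0.0357). Without the 2 farthest animals these were 0.60 and 0.51, in batch 1 they were 0.72 and 0.72, and in batch 2 0.79 and 0.76. Without the 3 libraries standing apart r was 0.51 and 0.31, and neither passed (adjusted p = 0.151 and 0.444). Those 3 had the highest ribosomal protein scores, so their removal also narrowed the range of that score. IDI1 also had r = -0.67 with the endothelial score (permutation p = 0.00061, adjusted p = 0.00598), with rho = -0.55 that did not pass (permutation p = 0.00699, adjusted p = 0.0571). It was -0.31 without the 2 farthest animals, -0.21 and -0.79 within the batches and -0.0028 without the 3 libraries, and it missed the threshold without psilocybin 1 week animal 6 or saline 1 day animal 5 alone. HMGCS1 had r = -0.57 with the endothelial score (permutation p = 0.00455, adjusted p = 0.0318, rho = -0.61, permutation p = 0.00231, adjusted p = 0.0283). That was -0.60 without 2 animals and -0.31 and -0.76 within the batches, and it did not pass without the 3 libraries (r = -0.34, adjusted p = 0.397), nor without saline 1 day animal 3 or 5, psilocybin 1 day animal 2, psilocybin 1 week animal 6 or saline 1 week animal 1 or 6. SQLE, FDFT1 and DHCR7 had no relation that passed with any of the 7 scores.

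**Figure D5:**
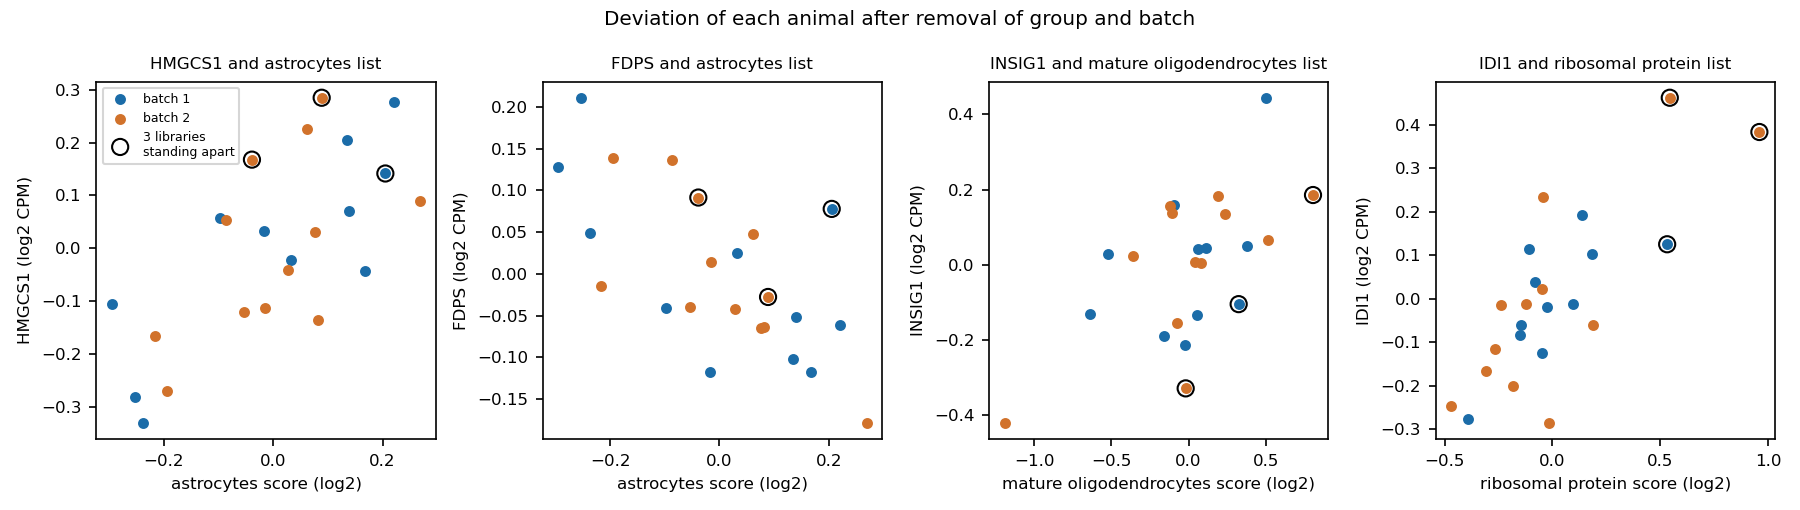
Deviation of each of the 23 animals after removal of group and batch, with the score of a marker list on the horizontal axis and the log2 CPM of a gene on the vertical axis, batch 1 in blue, batch 2 in orange and the 3 libraries standing apart circled. HMGCS1 rises and FDPS falls with the astrocyte score (r = 0.70 and -0.67), and the circled libraries extend the upper right of the IDI1 panel.

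The genes whose values lay closest to each of the 7 over the 23 animals, after removal of group and batch, were taken by the highest Pearson's r among all tested genes with a symbol. For HMGCS1 they were ALDH7A1 (0.85), ABCD3 (0.83) and CLPX (0.83), for IDI1 SIVA1 (0.91), PSMG3 (0.90) and HSCB (0.89), and for INSIG1 KIF13B (0.85), RALGDS (0.84) and ERBB3 (0.84). For FDFT1 they were SEPTIN5 (0.92), CSTPP1 (0.91) and CFL1 (0.90), for SQLE PNCK (0.73), QPRT (0.71) and PRMT2 (0.71), and for DHCR7 ZDHHC14 (0.89), ZFYVE27 (0.85) and APLP1 (0.84). FDPS had RUSC1 (0.99) first, then OLFM1 (0.91) and NUBP1 (0.91). None of these 21 genes belongs to the cholesterol or fatty acid lists. These coefficients are descriptions, taken for being the highest.

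Against the 15 other synthesis genes the median r was 0.41 for SQLE, 0.37 for IDI1, 0.36 for HMGCS1 and for FDFT1, 0.23 for FDPS, 0.18 for DHCR7 and 0.06 for INSIG1. Over all genes the median was between -0.08 and 0.01 for each of the 7. For each of the 6 enzyme genes the median with the synthesis genes lay above the gene's own upper quartile over all genes, which was 0.18 for SQLE, 0.32 for IDI1, 0.27 for HMGCS1, 0.25 for FDFT1, 0.20 for FDPS and 0.16 for DHCR7. For DHCR7 the median and the quartile lay close, at 0.175 and 0.164. The FDPS values cannot be told apart from those of RUSC1. INSIG1, the regulator, had a median between its quartiles (-0.17 and 0.18).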

How the data were processed

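Values are expected counts per Ensembl gene that the authors deposited. The submitters' processing notes name fastp 0.20.0, STAR 2.6c, featureCounts 1.5.1 and the build susScr11. Per the file headers, counting took primary alignments of pairs whose mates both mapped, ignored strand, and shared reads over several genes in fractions. Of all deposited values 72.2% were whole (tolerance 0), and the rest were rounded, which changed a library's total by at most 0.0013%. Exon length, the deposited sum of exon bases per gene, divided CPM for levels between genes. Symbols were found for 14857 of 25880 identifiers.

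Genes were kept with filterByExpr (minimum count 10, minimum total 15), scaled by TMM and fitted in 1 model of 4 groups and batch with the robust quasi-likelihood test of edgeR 4.0.16 (R 4.3.3), two-sided, with Benjamini-Hochberg adjustment over 15049 genes. DESeq2 1.42.0 was an alternative, with RLE scaling, no filter, no batch term, removal of 3 libraries, and leaving out each animal. Within-batch values are differences of mean log2 CPM (prior count 2). Correlations used residuals after group and batch, with 100000 two-sided permutations (smallest p 1e-05). Residuals after 5 fitted terms are not fully exchangeable, so these p-values are approximate. The marker list correlations and the RUSC1 comparison were added after the data were seen. Animal numbers are shared by 0 pairs of animals, so no animal appears more than 1 time. Any other matching of animals was not examined. The fits were tested on simulated counts that held larger changes than those of the 7 genes and no batch difference. That check therefore does not cover effects of the size found here. The 7 genes and the lists were chosen with earlier results of these data known. Genes named beside the 7 were, per comparison, those of 4 lipid lists past the threshold or else the 4 with the smallest p, and the 3 genes with the highest correlation with each. Depth ranged from 9504421 to 18654626 counts, and each of the 7 genes had at least 283 counts in every library. Values of some genes of the lists are not reported here, although the counts and medians over the lists include them.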

Additional observations from a re-analysis of the deposited data

Results flagged for a closer look

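In 28 sets of values (7 genes in 4 groups), 3 had an animal farther from the others than Dixon's criterion allows at the 95% level, which chance alone gives in about 1 of 20 sets. SQLE in psilocybin 1 week animal 6 had 120.2 CPM, and the 5 others had 89.6 to 98.7 CPM. INSIG1 in psilocybin 1 day animal 2 had 69.0 CPM, and the others had 44.4 to 51.0 CPM. INSIG1 in saline 1 day animal 4 had 35.5 CPM, and the others had 49.5 to 54.0 CPM.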

How the results depend on the processing

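No analysis paired by animal was possible because the animals of different groups share 0 animal numbers. Of 203 values of the 7 genes under RLE scaling, no filter, no batch term, DESeq2 and removal of the 3 libraries standing apart, 181 kept direction and side of the threshold, 4 passed where they had not, 0 lost a call and 18 changed sign, none of them past the threshold; the cause was not tested. Without the 3 libraries HMGCS1 had 0.0389 at 1 day and -0.0741 for the difference between the effects, and IDI1 had -0.00205 after psilocybin between the times. Between the times in saline, SQLE had -0.00357 with RLE, -0.0131 with no batch term, -0.00392 with DESeq2 and -0.0563 without the 3 libraries, and DHCR7 had -0.000513 with RLE, -0.000598 with DESeq2 and -0.0733 without the 3 libraries. Between batches, INSIG1 had 0.000732 with RLE, 0.0132 with no filter, 0.000703 with DESeq2 and 0.0115 without the 3 libraries, and DHCR7 had 0.0058, 0.0192, 0.00611 and 0.0378 in the same order. DESeq2 called 1 gene between the times in saline animals (301 unadjusted) and 1 in psilocybin animals (525 unadjusted). Between batches, 2 of the 7 genes passed with RLE and with DESeq2 (HMGCS1 and SQLE) and 3 without the 3 libraries (IDI1 too). With batch not removed 3 pairs passed, 2 of them among the 6 reported, and without the 3 libraries 4 marker list relations did, 3 of them among the 7 reported.

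Leaving out each animal in turn gave these ranges for the values that changed sign. At 1 day HMGCS1 had -0.0939 to 0.0388, SQLE -0.0103 to 0.0746, FDFT1 -0.0890 to 0.0266 and INSIG1 -0.0225 to 0.130. At 1 week HMGCS1 had -0.0954 to 0.0291 and IDI1 -0.00114 to 0.164. For the difference between the effects HMGCS1 had -0.0657 to 0.0753. Between the times in saline SQLE had -0.0514 to 0.0476, FDPS -0.0458 to 0.0241 and DHCR7 -0.0745 to 0.0664, and after psilocybin INSIG1 had -0.0969 to 0.0502 and IDI1 -0.00630 to 0.168. Between batches FDPS had -0.0531 to 0.0109, INSIG1 -0.0332 to 0.0437 and DHCR7 -0.0458 to 0.0494. Genes called between the times ranged from 0 to 1 in saline (1 without psilocybin 1 day animal 4) and from 0 to 1 in psilocybin animals (1 without psilocybin 1 week animal 6). Of the 7 genes 1 to 3 passed between batches (3 without saline 1 day animal 5), 3 to 7 pairs passed, and 4 to 8 marker list relations did (4 without saline 1 day animal 5).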
